A study of Oncorhynchus mykiss with 12 samples.

Results

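Small RNA of 12 adult rainbow trout livers was sequenced, and 27 of the 1696 sequences in the deposited table were predicted arms of known miRNA precursors that reached the minimum used here. The deposited names carry -p5 or -p3 where the authors predicted the arm from the precursor, and -5p, -3p or no arm mark where the miRNA was known. The 27 were the rows with such a predicted arm, outside the predicted candidate precursors, whose estimated counts summed to at least 50 over the 12 libraries. Another 215 predicted arm rows fell under that minimum. The last sequence inside it was dre-mir-457a-p3 with 52 counts and the first outside was ssa-mir-142b-p3 with 44 counts. The 27 were thus chosen by abundance, and their abundance is given as a description.

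The libraries came from 3 groups of 4 fish: refed with high carbohydrate (highCHO, fish 38, 45, 49 and 50), refed with no carbohydrate (noCHO, fish 20, 21, 31 and 33) and fasted (fish 7, 8, 10 and 13). The fast lasted 4 days and refeeding was acute, per the labels, which give every fish as adult, wild type, strain Walbaum. RNA was taken with Trizol from flash-frozen liver, and each library stands for 1 fish. The comparisons ask how the liver's miRNAs differ after a meal with or without carbohydrate in a fish known for poor glucose tolerance.

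A miRNA precursor folds into a hairpin whose stem is usually cut by Dicer into a duplex of a 5′ and a 3′ arm, each strand leaving a short 3′ overhang. One strand, the guide, is kept by an Argonaute protein and pairs with mRNAs through its seed at bases 2 to 8, while the other strand, the passenger or star strand, is mostly degraded. In liver, miR-122 is the abundant hepatocyte miRNA, and let-7, miR-30, miR-199 and miR-125 are widely expressed families.

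The sequences below are from the deposited table, 5′ to 3′, written with T, with the seed in capitals. The first set holds the members whose level or arm share the results turn on, each followed by the most abundant known row of the opposite arm of its stem. Member names are given without the authors' trailing marks for base differences. For miR-29 the abundant 3′ row of the family is added.
ssa-mir-16a-1-p3: tTAAAACTactgctgaagcct
dre-miR-16a_2ss9CT21TA: tAGCAGCAtgtaaatattggag
ssa-mir-122-1-p3: tGTCCTCTgctatca
dre-miR-122_R-1: tGGAGTGTgacaatggtgttt
ssa-mir-30e-1-p3: gTGAGTTGgcagcagagg
dre-miR-30e-5p_R+2: tGTAAACAtccttgactggaagct
dre-let-7a-2-p3: cTATACAAcctcctagctttcc
dre-let-7a: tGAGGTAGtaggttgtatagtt
ssa-mir-29a-p3: tTAATGTTctcagtgtc
ipu-miR-29a_R+2: aCTGATTTcctctggtgttca
dre-miR-29b: tAGCACCAtttgaaatcagtgt
dre-mir-451-p3: tTTAGCAAtggtaagggttct
dre-miR-451_R-1: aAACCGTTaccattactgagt
Of these 6 members, dre-let-7a-2-p3 and dre-mir-451-p3 formed 17 base pairs each with their partners in a predicted duplex, and the other 4 formed 5 to 11.

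The second set holds 4 members that read on the same strand as an abundant known row of their family, each followed by that row. It ends with ccr-mir-457a-p5, shown above fru-miR-16, a row of another family with the same seed.
ola-mir-122-p5: tGGAGTGTgacgatggtgtttgat
dre-miR-122_R-1: tGGAGTGTgacaatggtgttt
ola-mir-19a-p3: tTGTGCAAatctatgcaaagct
dre-miR-19a-3p_L+1R-2: tTGTGCAAatctatgcaaaact
tni-mir-199-3-p3: aCAGTAGTctacacattggttatt
dre-miR-199-3p_L-1: aCAGTAGTctgcacattggtt
ola-let-7b-1-p3: cTATACAActtactgccttccc
ssa-let-7h-3p: cTATACAActtactgccttcct
ccr-mir-457a-p5: tAGCAGCAcatcattactgg
fru-miR-16: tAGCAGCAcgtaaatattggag
The seed of each member of this set is that of the row beneath it. The third set is the pair named miR-7641, in which the last bases of the -p5 row are the first of the -p3 row.
hhi-mir-7641-p5: gAATACGCccgatctcgtccgatctcgga
hhi-mir-7641-p3: cGATCTCGgaagctaagcagggtcggg

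The 27 members held 10876 estimated counts, 0.0634% of the 17160357 counts in the table and 91.8% of the counts of all 242 predicted arm rows. Of them, 10 were -p5 and 17 were -p3 rows, from 20 families and 24 stems. Totals ran from 52 to 3227 with a median of 164, and 22 of the 27 had counts in all 12 libraries. ssa-mir-16a-1-p3 alone held 29.7% of member counts, and the 3 most abundant rows held 55.4%. A count is 1 whole small RNA, so counts were not divided by length.

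By family, miR-16 held 3227 counts through its 1 member, and the 2 miR-122 members held 2258. The 2 miR-7641 rows held 1492 counts and the 4 let-7 members 1330. miR-214 followed with 407, miR-30 with 272, miR-451 with 232.7, miR-457 (2 members) and miR-7132 with 208 each and miR-19 with 183. The remaining families, miR-223, miR-29 (2 members), miR-731, miR-1306, miR-181, miR-7550, miR-199, miR-130, miR-125 and miR-726, held between 70 and 164 counts each. Relative to all rows of the same family, the members were a trace in the abundant families, at 0.0454% of miR-122, 0.0232% of miR-30, 0.0117% of miR-199 and 0.122% of let-7 counts. They were a larger part of miR-16 (12.3%), miR-214 (14.3%) and miR-223 (20.3%).

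Length was one of the features the choice did not use. Members were 15 to 29 nt long with a median of 22 nt, and 20 of 27 lay between 20 and 24 nt, against 319 of 340 known rows with at least 50 counts. The 4 rows under 20 nt were ssa-mir-122-1-p3, ssa-mir-30e-1-p3, ssa-mir-29a-p3 and dre-mir-1306-p5, and the 3 over 24 nt were the miR-7641 rows and ola-mir-223-p5. T was the first base of 10 members, against 155 of the 340 known rows. C opened 9 members, A 4 and G 4. Among the members 26 seeds were distinct, 1 being shared by 2 let-7 rows, and 15 members shared their seed with a known row.

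The label of an opposite arm was set beside the known rows of each stem. Of 281 rows with no arm mark, 192 took the arm of a marked family row, known or else predicted, that they aligned with. Another 55 took the other arm where all marked rows of their family named 1 arm, and 34 stayed without. The most abundant opposite rows of miR-451, miR-223 and miR-726 were among the 55, so there the predicted label itself made them opposite. A known row of the opposite arm of the same stem was present for 20 members, with at least 50 counts for 17 of them, and 16 members were less abundant than it. The arm share given here is the member's counts out of the member and the known rows of the opposite arm, and known rows of the member's own arm are left out of it. It ranged, in the stems with the most counts of the known arm, from 0.0128% for tni-mir-199-3-p3 (82 counts against 642176) to 2.32% for fru-let-7i-p3 (405 against 17039). dre-let-7a-2-p3 had 572 counts against 602312 of the let-7a 5′ arm, a share of 0.0949%. ssa-mir-122-1-p3 had 1532 against 4923898 (0.0311%) and ssa-mir-30e-1-p3 had 272 against 691179 (0.0393%). In each of these stems the member had fewer counts than the known opposite arm. ssa-mir-122-1-p3 and ssa-mir-30e-1-p3 aligned with no known row of their family. They made up 3.12% and 0.645% of the counts of the arm they are named for.

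Higher shares belonged to the stems of miR-223, miR-29a and miR-130c, with little of either arm. ola-mir-223-p5, from a precursor known in myeloid cells, had 164 counts against 643.5 (20.3%). ssa-mir-29a-p3 had 69 against 315 (18.0%) and dre-mir-130c-1-p5 had 77 against 732.75 (9.51%). dre-mir-451-p3, of a stem with more of the known arm, had 232.7 counts against 22127 (1.04%), a share within the range of the abundant stems. miR-451 is the erythroid miRNA that in mammals and zebrafish is cut by Ago2 rather than by Dicer, with a mature strand that runs into the loop.

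In 4 stems the predicted arm outnumbered the known opposite arm. ssa-mir-16a-1-p3 had 3227 counts against 5 of the miR-16a 5′ rows, although all known rows of the miR-16 family together held 23083. ola-mir-214-p3 had 407 against 198.5, ola-mir-19a-p3 had 183 against 13 and dre-mir-726-p5 had 70 against 17. For miR-214 and miR-19a the known 3′ rows are themselves the abundant strand: ssa-miR-214-3p_L-1_1ss23AT held 2245.75 counts and is identical to the member over 22 of 22 bases, and dre-miR-19a-3p_L+1R-2 held 8938. With the known rows of its own arm counted too, ola-mir-214-p3 was 14.3% of the counts of its stem.

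**Figure D1:**
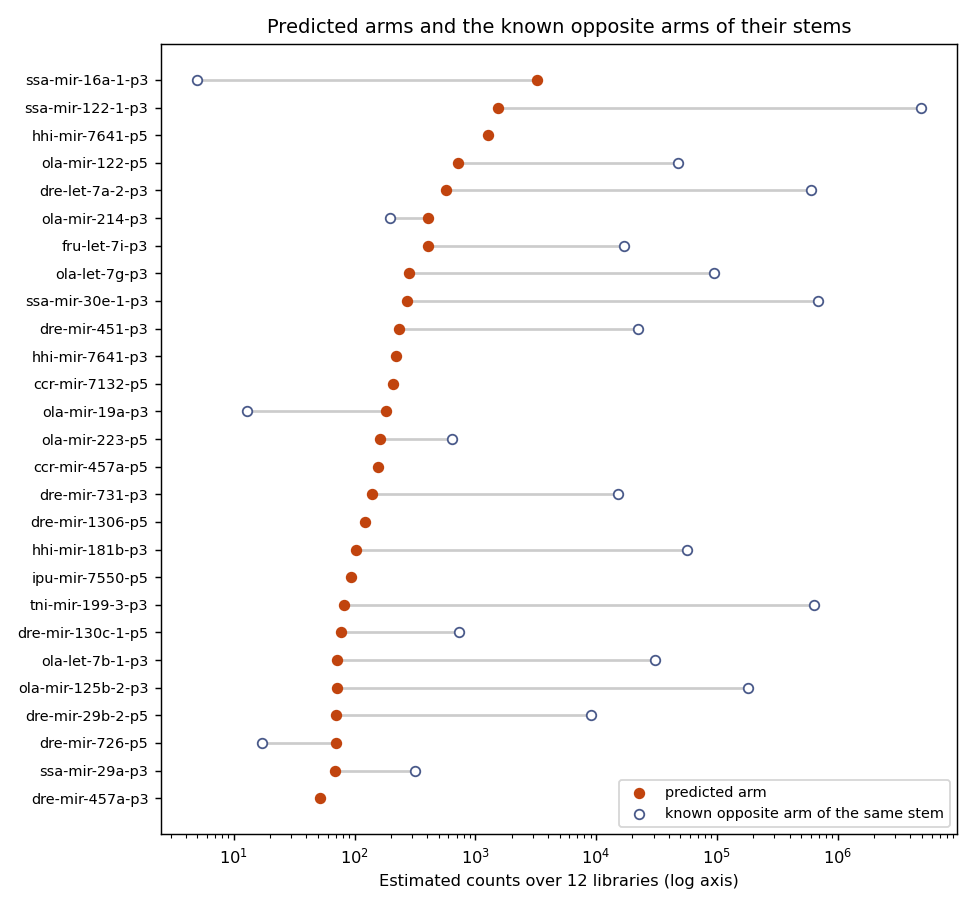
Estimated counts summed over 12 libraries (log axis) of each of the 27 predicted arms (filled) and of the known opposite arm of its stem (open), joined by a line where that arm was counted. The predicted arm lies to the left of the open point for 16 members and to the right of it for 4, led by ssa-mir-16a-1-p3 with 3227 against 5.

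For some members the data went against the label of an opposite arm, in that a known row of their own stem read on the same strand. On alignment, 16 of the 27 read on the same strand as a known row of their family, and 11 did not. The 16 include matches to sister stems only, which do not go against the label. ola-let-7b-1-p3 and ola-let-7g-p3 had no known row on their arm of their own stem. They formed 19 and 18 base pairs with dre-let-7b and dre-let-7g. ola-mir-122-p5, with 725.8 counts, is dre-miR-122_R-1 (4923834 counts) with the change A12G over the 21 bases they share, the known row's base being given first and positions counted from the 5′ end of the member. It thus reads as a variant of the miR-122 guide strand, at 0.0147% of that arm. ola-mir-19a-p3 differed from dre-miR-19a-3p_L+1R-2 by A20G. tni-mir-199-3-p3 differed from dre-miR-199-3p_L-1 (55921 counts) by G11A, and ola-let-7b-1-p3 from ssa-let-7h-3p (3917 counts) by T22C. ccr-mir-7132-p5 differed from ssa-miR-7132b-5p (4808.5 counts) by A10T and C22A. Between rows this alike, the division of reads is uncertain.

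Other members on a known strand matched a row of it at every shared base. dre-mir-731-p3, of a teleost miRNA, matched ssa-miR-731-3p (1523 counts) over 22 of 22 bases. ipu-mir-7550-p5 matched ipu-miR-7550_L-1R-1 (4799 counts) over all 16 bases of that row. fru-let-7i-p3 matched ssa-let-7i-2-3p_R-1_1ss9GA (113 counts) over 21 of 21 bases. dre-mir-130c-1-p5 matched ipu-miR-130c_R+3 (284 counts) over 19 of 19. hhi-mir-181b-p3 matched dre-miR-181b-3p_R-2 (21 counts) over 20 of 20. dre-mir-29b-2-p5 matched ipu-miR-29c_R+2 (2 counts) over 23 of 23. ccr-mir-457a-p5 had 1 known row on its strand, of miR-457b, with 8 counts and 17 of 20 bases alike, and it carried the seed of miR-16, which 16 known rows with 38202 counts share. No known row of the miR-7641 or miR-1306 families was in the table. The miR-7641 rows overlap by 10 nt and join into 46 nt, and sequences filed under that name in other vertebrates are known to resemble part of 5S ribosomal RNA, which was not examined here.

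Pairing of the arms, which the choice also did not use, was computed for each member with its opposite row. Where no known opposite row existed, the row of the opposite arm was itself predicted or came from a sister stem. The miR-7641 rows were each other's opposite row, as were the miR-457a rows, so those duplexes are counted once for each member. The members' duplexes had a median of 16 base pairs and −21.3 kcal/mol, with ranges of 5 to 19 pairs and −28.7 to −5.2 kcal/mol. The 58 known pairs, each of 2 rows whose names mark the arm, had a median of 17 pairs, range 11 to 20, and −22.35 kcal/mol. A member's opposite row, unlike these, could be one with no arm mark in its name. In 12 of 27 member duplexes both 3′ overhangs were 1 to 3 nt, against 38 of 58 known pairs. Overhangs of 2 nt at both ends were found in 6 member duplexes (the 4 let-7 rows, ccr-mir-7132-p5 and dre-mir-726-p5) and in 13 known pairs.

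Fewer than 11 pairs formed in 5 member duplexes, and the known pairs had none so low. They were ssa-mir-29a-p3 with 5 pairs, dre-mir-1306-p5 with 7, ssa-mir-16a-1-p3 and ssa-mir-122-1-p3 with 8 each and ipu-mir-7550-p5 with 10. For dre-mir-1306-p5 and ipu-mir-7550-p5 the opposite row was itself predicted and had 2 counts. That of ipu-mir-7550-p5 is nearly the same sequence as the member, so its 10 pairs are not a pairing of 2 arms. ssa-mir-30e-1-p3 formed 11. Of the 4 let-7 members the lowest had 17 pairs. So the 2 most abundant members were among those whose sequence pairs least with the known arm they are named against. Pairs were not adjusted for length, and a short row can form fewer. ssa-mir-122-1-p3 is 15 nt long and ssa-mir-29a-p3 and dre-mir-1306-p5 are 17 nt, while ssa-mir-16a-1-p3 is 21 nt.

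**Figure D2:**
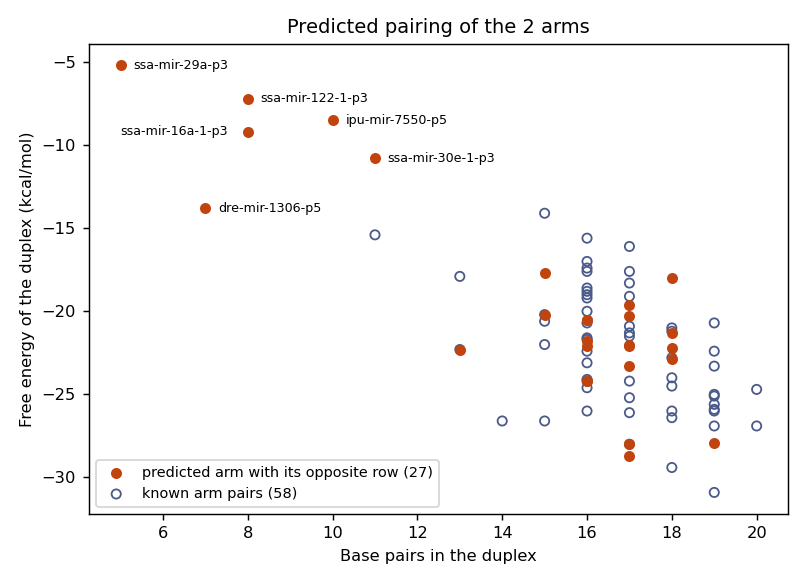
Base pairs (x axis) against free energy in kcal/mol (y axis) of the predicted duplex of each of the 27 predicted arms with its opposite row (filled) and of 58 pairs of known arms (open). The 6 named members have 5 to 11 pairs and lie at −13.8 kcal/mol or above, and the other 21 fall within the ranges of the known pairs.

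Library depth ran from 197684 (highCHO fish 49) to 3057706 (noCHO fish 33) estimated counts, so 1 count was worth between 5.06 and 0.327 CPM (counts scaled to a common library total). In 11 libraries the miRNAs of the pancreas list (miR-375, miR-216, miR-217 and miR-7) summed to 140 to 376 CPM, and in highCHO fish 38 to 16145 CPM. Fish 38 also had the most of the fibroblast and smooth muscle list (48282 CPM, against 15897 to 27984 in the other 11). The same held for the epithelial list (7790 CPM, against 1489 to 4279) and the skeletal and cardiac muscle list (210 CPM, against 7.26 to 74.5). Fish 38 had the least miR-122, and lay within the range of the other 11 for the erythrocyte, leukocyte, endothelial and neural lists. miR-122, which marks hepatocytes, summed to 227739 to 307547 CPM in highCHO, 304963 to 359791 in noCHO and 268841 to 289009 in fasted livers. All CPM values of this paragraph so far are scaled to the library total. Levels of members below are CPM after TMM scaling, which differ. After TMM scaling the known miR-122 5′ rows held 201588 to 355063 CPM in highCHO, 292205 to 435275 in noCHO and 229420 to 270331 in fasted livers. The order of highCHO and fasted means thus depended on the scaling. Inserts under 15 nt made up 14.2% to 32.2% of adapter-bearing reads in highCHO, 6.18% to 13.0% in noCHO and 7.63% to 11.6% in fasted libraries. The libraries also fall into 2 sets by the share of 1 let-7c variant: all highCHO libraries and noCHO fish 31 and 33 had over 2%, and all fasted libraries and noCHO fish 20 and 21 had less. No set holds both highCHO and fasted libraries, so a value within a set could not be had for that comparison, and a term for the set rests on the noCHO libraries alone. Values with that term, within the set that 2 groups share or without a library are given where they change a result. The part of the short inserts in the results was not tested. In bulk liver, fewer cells of a type and less RNA per cell cannot be told apart either.

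All 27 members together held 0.0712% ± 0.0133 of counts in highCHO, 0.0607% ± 0.0154 in noCHO and 0.0646% ± 0.00716 in fasted libraries (SD, n = 4 each). The differences were 0.00655 percentage points for highCHO minus fasted (exact two-sided permutation test, p = 0.371, adjusted over 3 comparisons 0.557), 0.0105 for highCHO minus noCHO (exact p = 0.314, adjusted 0.557) and −0.00392 for noCHO minus fasted (exact p = 0.686, adjusted 0.686). All 3 differences were within the spread between libraries. The smallest p that 4 libraries against 4 allow is 0.0286.

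Single sequences were tested with edgeR's quasi-likelihood test over the 340 sequences that passed its expression filter, adjusted by Benjamini-Hochberg, with a threshold of 0.05. Of the 27 members 17 passed the filter. No member was called in any comparison. For highCHO against fasted, 0 of 17 members were called, while 21 sequences in all were called (6.18%); at an unadjusted p under 0.05 there were 2 members and 92 sequences (27.1%). For highCHO against noCHO 0 members were called and 8 sequences in all (2.35%), with 2 members and 66 sequences (19.4%) before adjustment. For noCHO against fasted, edgeR called 0 members and 0 sequences in all (0%), with 1 member and 23 sequences (6.76%) before adjustment. For the 2 refed groups averaged, against fasted, 0 members and 7 sequences in all (2.06%) were called, with 2 members and 56 sequences (16.5%) before adjustment. DESeq2 called 1 member, ssa-mir-30e-1-p3, in highCHO against fasted (35 sequences in all, 10.3%) and none in the others, where it called 22 sequences in all for highCHO against noCHO (6.47%), 2 for noCHO against fasted (0.588%) and 11 for both refed groups against fasted (3.24%). In no comparison did the share of members passing before adjustment exceed the background.

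The median fitted change of the 17 members was 0.17 on the log2 scale in highCHO over fasted (11 higher, 6 lower), against 0.03 over all 340 sequences. It was 0.34 in highCHO over noCHO (12 higher, 5 lower), against −0.00 over all, and −0.10 in noCHO over fasted (5 higher, 12 lower), against 0.02 over all. The 3 comparisons share groups, so these medians are not independent. Scaling to the sample total in place of TMM moved the median of all sequences to −0.19, −0.00 and −0.17 in the same order, and that of the members to 0.02, 0.29 and −0.28. For the average of the refed groups over fasted, the members split into 10 higher and 7 lower, against 5 and 12 under that scaling, where the median of all sequences was −0.17.

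**Figure D3:**
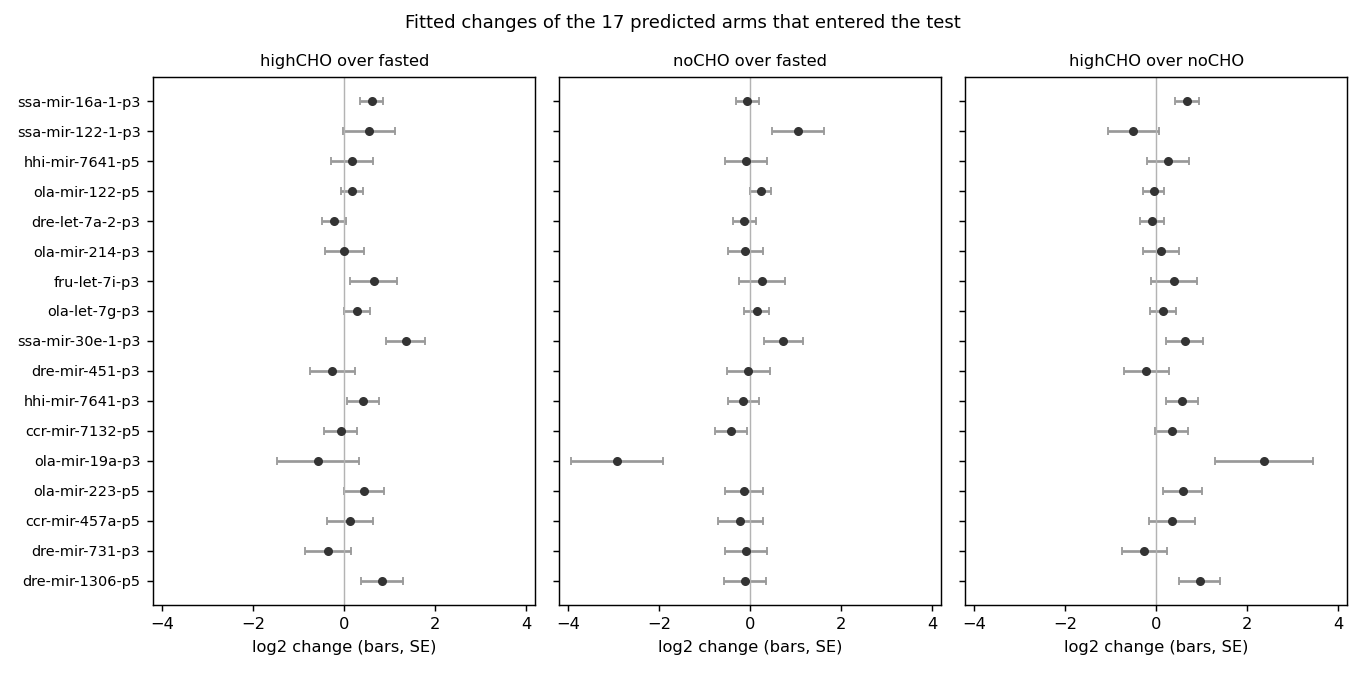
Fitted log2 change (points) and standard error (bars) of the 17 predicted arms that passed the expression filter, for highCHO over fasted, noCHO over fasted and highCHO over noCHO (x axes). None passed the adjusted threshold; ola-mir-19a-p3 has the widest bars and ssa-mir-30e-1-p3 the largest positive change in highCHO over fasted, 1.35.

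The most abundant member, ssa-mir-16a-1-p3, had 155.4, 329.3, 362.6 and 279.0 CPM in highCHO fish 38, 45, 49 and 50. It had 205.3, 180.5, 156.6 and 162.1 CPM in the noCHO livers and 201.8, 221.4, 141.3 and 173.0 CPM in the fasted livers. Fish 45, 49 and 50 stood above every noCHO and fasted library and fish 38 below every noCHO library, so the groups overlapped through 1 fish. The means were 282 ± 90.9 CPM in highCHO, 176 ± 22 in noCHO and 184 ± 34.9 in fasted livers (SD, n = 4 each). Its fitted change was 0.60 (SE 0.26, edgeR adjusted p = 0.161) in highCHO over fasted and 0.67 (SE 0.26, adjusted p = 0.173) in highCHO over noCHO. Without fish 38, the library with the pancreas miRNAs, these were 0.81 (edgeR adjusted p = 0.0315) and 0.87 (adjusted p = 0.0252), both past the threshold. Each library was left out in turn, and only without fish 38 did the row pass. The highCHO group of that fit is fish 45, 49 and 50. The number of sequences called in it over the whole table is not given here. miR-16 is known as a brake on the cell cycle; this row is named for the opposite strand of its stem, with which it formed 8 pairs.

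ssa-mir-30e-1-p3 had 19.3, 49.7, 4.42 and 19.1 CPM in highCHO fish 38, 45, 49 and 50. In noCHO livers it had 12.4, 19.1, 17.3 and 15.3 CPM, and in fasted livers 9.29, 8.38, 11.4 and 9.86 CPM. Every noCHO library stood above every fasted one, as did 3 of 4 highCHO libraries; the value of fish 49 was a single count. Separation of noCHO from fasted was seen for this 1 of 17 members and for 4.12% of all sequences tested. Its fitted change was 1.35 (SE 0.43, edgeR adjusted p = 0.0810) in highCHO over fasted and 0.73 (SE 0.43, adjusted p = 0.772) in noCHO over fasted, so neither passed. Without fish 49 the highCHO change was 1.64 (edgeR adjusted p = 0.0257), and DESeq2 on all libraries gave 1.41 (SE 0.49, adjusted p = 0.0420). The number of sequences called without fish 49 is not given here. The known arm, dre-miR-30e-5p_R+2, changed by −0.01 (SE 0.16) in highCHO over fasted.

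The 2 miR-122 members differed in their spread. ssa-mir-122-1-p3, the 15 nt row, had 303, 52, 3 and 80 counts in highCHO fish 38, 45, 49 and 50, against 81, 225, 278 and 157 in noCHO and 121, 16, 57 and 159 in fasted libraries. Its level spread from 13.3 to 158 CPM within the highCHO group alone, and all groups overlapped. The fitted change of 1.05 (SE 0.57) in noCHO over fasted had an edgeR adjusted p of 0.772. ola-mir-122-p5, the variant of the guide strand, averaged 44.5 ± 10.3 CPM in highCHO, 47.5 ± 12.2 in noCHO and 40.2 ± 4.45 in fasted livers (SD, n = 4 each). Its changes lay between −0.06 and 0.23 with SEs of 0.20 to 0.24.

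The 3 let-7 members with the most counts, star strands of a family known for holding back proliferation, overlapped between all groups. dre-let-7a-2-p3 averaged 28.8 ± 8.81 CPM in highCHO, 31.5 ± 6.53 in noCHO and 34.7 ± 6.97 in fasted livers. ola-let-7g-p3 averaged 18.2 ± 5.99, 16.8 ± 4.07 and 15.5 ± 2.81 CPM in the same order. fru-let-7i-p3 ranged from 9.55 to 70.7 CPM in highCHO, 16.9 to 39.8 in noCHO and 13.7 to 32.3 in fasted livers (all SDs over n = 4). The largest fitted change of the 3 in any comparison was 0.65 (SE 0.52), for fru-let-7i-p3 in highCHO over fasted.

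ola-mir-19a-p3, of the miR-17-92 cluster, had 5, 17, 0 and 20 counts in highCHO fish 38, 45, 49 and 50, 3, 2, 2 and 8 in noCHO and 57, 1, 1 and 67 in fasted libraries. The fasted group itself split, with fish 7 and 13 at 35.3 and 25.4 CPM and fish 8 and 10 at 1.20 and 1.14 CPM. Its change of −2.94 (SE 1.01) in noCHO over fasted therefore rested on 2 fish and had an edgeR adjusted p of 0.534. Without an expression filter, ola-mir-19a-p3 was called in noCHO over fasted (−2.94, SE 0.66, edgeR adjusted p = 0.0129), 1 of 4 sequences called. In that setting it was also called in highCHO over noCHO (2.34, SE 0.69, edgeR adjusted p = 0.0385), 1 of 52. The number tested in that setting is not given here. The row was 1.89% of the counts of its arm. With all rows of that arm summed, the level changed by −1.32 (SE 0.23, edgeR adjusted p = 0.00542) in highCHO over fasted. It changed by −0.82 (edgeR adjusted p = 0.0804) in highCHO over noCHO and −0.91 (adjusted p = 0.0279) in both refed groups over fasted. Set against dre-miR-19a-3p_L+1R-2 alone, it made up 5.54% and 4.39% of the counts of both rows in fish 7 and 13. In highCHO fish 45 and 50 it made up 6.97% and 7.38%, and in the other 8 libraries at most 0.909%.

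hhi-mir-7641-p5 had 166 CPM in highCHO fish 38 and 26.5 to 65.9 CPM in the other 3 highCHO livers, against 55.7 to 81.2 in noCHO and 46.7 to 81.2 in fasted livers. The change of 0.17 (SE 0.46) in highCHO over fasted was −0.63 without fish 38, and neither passed. hhi-mir-7641-p3 lay between 6.44 and 20.8 CPM in all 12 libraries. dre-mir-1306-p5 had 8.34, 17.3, 8.84 and 9.55 CPM in highCHO livers, all above the noCHO livers at 1.13, 5.35, 7.43 and 7.28 CPM, with 4.55 to 10.3 CPM in fasted livers. It was 1 of 17 members without overlap in that comparison, where 9.12% of sequences tested had none, and its change of 0.95 (SE 0.45) had an edgeR adjusted p of 0.265.

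None of the remaining members that passed the filter was called in any comparison. ola-mir-214-p3, whose precursor shares a transcript with miR-199 in mouse and zebrafish, averaged 21.0 ± 13.3 CPM in highCHO, 21.2 ± 5.67 in noCHO and 22.8 ± 6.97 in fasted livers (SD, n = 4 each). dre-mir-451-p3 averaged 13.3 ± 3.36, 14.4 ± 9.30 and 15.6 ± 8.17 CPM in the same order, and ccr-mir-7132-p5 13.1 ± 0.294, 10.1 ± 5.39 and 13.8 ± 2.40 CPM. dre-mir-731-p3, ola-mir-223-p5 and ccr-mir-457a-p5 ranged from 2.21 to 16.1 CPM over the 12 libraries. Among these 6 members the smallest edgeR adjusted p in any comparison was 0.419, for ola-mir-223-p5 in highCHO over noCHO.

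**Figure D4:**
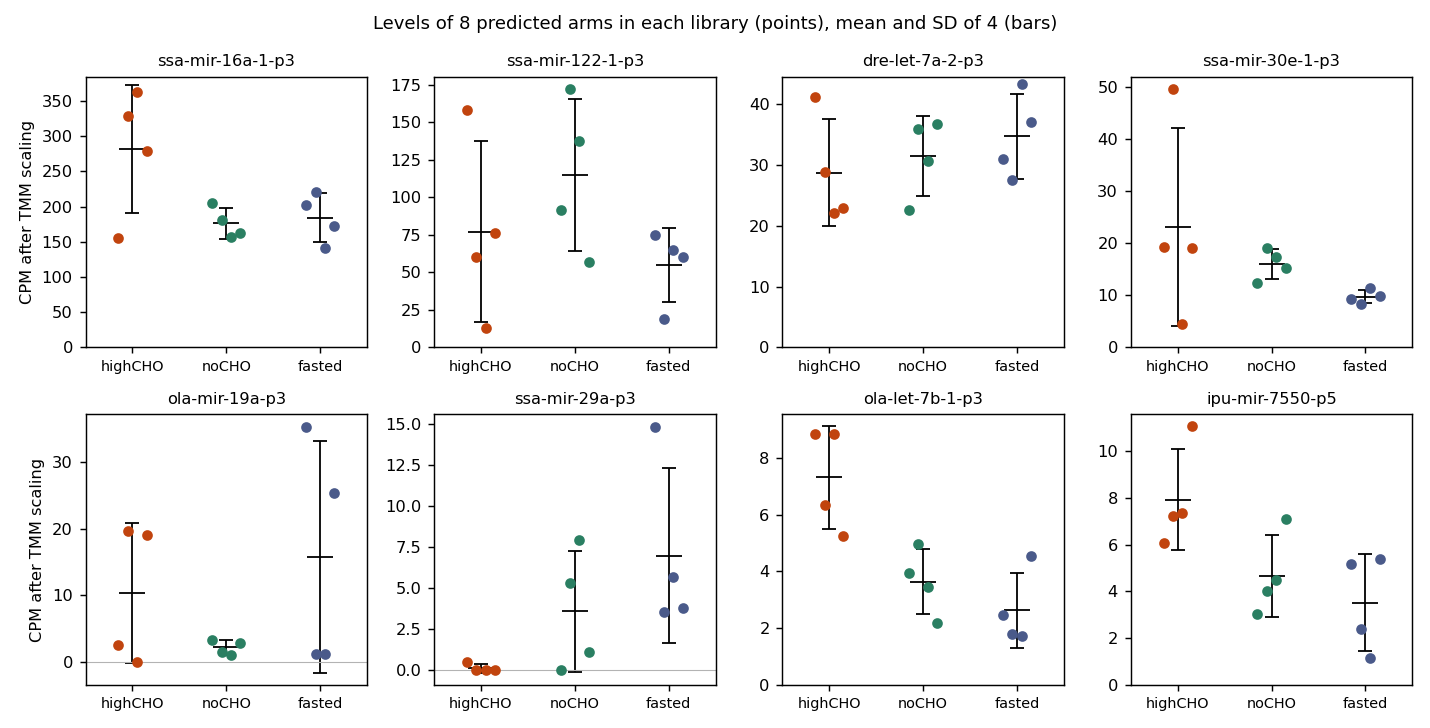
Level of 8 predicted arms in CPM after TMM scaling (y axes), each point 1 library, with mean and SD of the 4 libraries of the highCHO, noCHO and fasted groups. ssa-mir-16a-1-p3 is higher in 3 of 4 highCHO livers, ssa-mir-29a-p3 is at or near 0 in highCHO, and ola-mir-19a-p3 is split within the fasted group.

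The 10 members under the edgeR filter had 52 to 103.5 counts in all. With the filter set to 50 counts over the 12 libraries, 449 sequences and all 27 members were tested and again 0 members were called. Over those 27 the median change was 0.14 in highCHO over fasted (16 higher, 11 lower), 0.26 in highCHO over noCHO (17 higher, 10 lower) and −0.13 in noCHO over fasted (8 higher, 19 lower). Over all 449 sequences it was 0.05, 0.04 and −0.03. Among sequences with at least 50 counts, 3 of 27 members had no overlap between highCHO and fasted libraries, against 15.6% of the 450 such rows. Without overlap between highCHO and noCHO were 2 of 27 members, against 8.44%, and between noCHO and fasted 1 of 27, against 3.78%. The members' shares were near or under the background in each comparison.

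Of those without overlap, ola-let-7b-1-p3 and ipu-mir-7550-p5 were picked out after their values were seen. ola-let-7b-1-p3 had 8.86, 6.36, 8.84 and 5.25 CPM in highCHO livers, against 3.95, 4.97, 3.47 and 2.19 in noCHO and 2.48, 1.80, 1.71 and 4.55 in fasted livers. All 4 highCHO libraries were above all others. Its change was 1.23 (SE 0.39, edgeR adjusted p = 0.0726) in highCHO over fasted and 1.06 (adjusted p = 0.118) in highCHO over noCHO, from 72 counts in all. dre-let-7b, its opposite arm, changed by 0.75 (SE 0.24, edgeR adjusted p = 0.0829) in highCHO over fasted. ipu-mir-7550-p5 had 6.05 to 11.1 CPM in highCHO, 3.01 to 7.10 in noCHO and 1.14 to 5.38 CPM in fasted livers. Its change of 1.1 (SE 0.46) in highCHO over fasted had an edgeR adjusted p of 0.151. Set against ipu-miR-7550_L-1R-1, the known row on its strand, it made up 1.18% to 2.12% of both rows in highCHO libraries. That share was 1.01% to 2.88% in noCHO and 2.56% to 4.69% in fasted libraries. It was thus lower in highCHO than in fasted libraries, where the member's level was higher.

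The ratio of 2 arms within a library needs no scaling between libraries, and it was tested with limma over 87 arm pairs with at least 50 counts of each arm. In 17 of them a member was set against the known opposite arm, and both miR-122 members were among these. In highCHO against fasted 1 of 17 member ratios was called, against 13 of 87 in all (14.9%), with 2 members and 29 pairs (33.3%) at an unadjusted p under 0.05. In highCHO against noCHO limma called 0 members and 8 pairs in all (9.20%), with 0 members and 22 pairs (25.3%) at an unadjusted p under 0.05. In noCHO against fasted limma called 0 members and 0 pairs (0%), with 0 members and 4 pairs (4.60%) before adjustment. For the 2 refed groups averaged, against fasted, it called 0 members and 0 pairs (0%), with 2 members and 18 pairs (20.7%) before adjustment.

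The arm ratio that fell was that of ssa-mir-29a-p3. miR-29 is known in mammals to target collagen mRNAs through its 3′ arm, and this row does not carry the seed of dre-miR-29b, the abundant 3′ row of the family. It had 1, 0, 0 and 0 counts in highCHO fish 38, 45, 49 and 50, against 0, 7, 16 and 3 in noCHO and 24, 3, 5 and 10 in fasted libraries. The known 5′ arm, ipu-miR-29a_R+2, was itself counted 3 to 61 times per library. The member's arm share was at most 2.41% in highCHO, 0% to 31.7% in noCHO and 14.1% to 43.6% in fasted libraries. Every fasted library lay above every highCHO library, and noCHO overlapped both; highCHO and fasted shares were without overlap in 17.2% of all pairs tested. The log2 ratio changed by −2.75 (SE 0.74, limma adjusted p = 0.0285), a size that depends on the 0.5 counts added to each arm. Summed over libraries and per depth, highCHO held 1 count and fasted 42, a ratio of 0.0306 with an exact 95% counting interval of 0.000756 to 0.180. The noCHO sum of 26 gave 0.469 (0.276 to 0.783) of fasted. These intervals cover counting error only. With the filter at 50 counts, the level of ssa-mir-29a-p3 changed by −4.48 (SE 1.21, edgeR adjusted p = 0.0589) in highCHO over fasted. In highCHO over noCHO it changed by −3.54 (SE 1.27, edgeR adjusted p = 0.118), so neither passed. ipu-miR-29a_R+2 itself changed by −0.23 (SE 0.32) in highCHO over fasted.

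The call was lost with 2 counts added (−1.39, limma adjusted p = 0.119), with a term for the library set (−3.14, adjusted p = 0.225), and without any 1 of 4 fish. The change was −2.72 (limma adjusted p = 0.0621) without fasted fish 8, −2.83 (0.0645) without fasted fish 10, −2.63 (0.0547) without highCHO fish 45 and −2.54 (0.0569) without highCHO fish 50, so its size moved little in these fits. Fasted fish 7 held 24 of the 69 counts of the row. Without that fish the pair fell under the minimum of 50 counts and was not tested, so the dependence on it is not known. The row is 17 nt long, and highCHO libraries held the most inserts under 15 nt. The other members under 20 nt went up in highCHO over fasted with the filter at 50 counts. ssa-mir-30e-1-p3 changed by 1.33, dre-mir-1306-p5 by 0.80 and ssa-mir-122-1-p3 by 0.54, and none passed. The part of the short inserts in any of these changes was not tested.

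dre-let-7a-2-p3 came next among member ratios. Its arm share was 0.0953%, 0.0657%, 0.0636% and 0.0506% in highCHO fish 38, 45, 49 and 50. It was 0.0593% to 0.121% in noCHO and 0.0931% to 0.167% in fasted libraries. Only fish 38 reached the fasted range. The log2 ratio changed by −0.79 (SE 0.29, limma adjusted p = 0.0677) in highCHO against fasted, and by −0.94 (adjusted p = 0.0395) without fish 38. With at least 500 counts asked of each arm, which left 32 pairs and 3 members, the same change of −0.79 passed (limma adjusted p = 0.0322). The level of the member changed by −0.22 (SE 0.26) and that of dre-let-7a by 0.52 (SE 0.18, edgeR adjusted p = 0.0902). dre-let-7a-2-p3 was only 8.68% of the counts of the let-7a arm it is named for. With all rows of that arm summed, the level changed by 0.70 (SE 0.22, edgeR adjusted p = 0.0715) in highCHO over fasted. The ratio above is thus that of this row and not of the whole 3′ arm, whose level went the other way.

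The ratio of ssa-mir-30e-1-p3 to its known arm changed by 0.97 (SE 0.49, limma adjusted p = 0.175) in highCHO against fasted, and by 1.51 (adjusted p = 0.00908) without highCHO fish 49. Its arm share was 0.0105% to 0.114% in highCHO, 0.0272% to 0.0532% in noCHO and 0.0192% to 0.0267% in fasted libraries. The noCHO and fasted shares did not overlap, as for 6.90% of all pairs tested, and it was the 1 member of 17 where that was so. The arm share of dre-mir-451-p3 was 1.23% ± 0.414 in highCHO, 1.12% ± 0.295 in noCHO and 0.930% ± 0.0884 in fasted libraries (SD, n = 4 each). fru-let-7i-p3 held 3.52% ± 2.60, 2.17% ± 0.765 and 3.18% ± 1.41 in the same order. ola-mir-214-p3 held 55.8% ± 19.5 in highCHO, 64.8% ± 5.25 in noCHO and 68.4% ± 7.09 in fasted libraries. ola-mir-223-p5 held 20.6% ± 8.24, 19% ± 9.35 and 17.1% ± 3.74. Each pair of groups overlapped for dre-mir-451-p3, fru-let-7i-p3, ola-mir-214-p3 and ola-mir-223-p5.

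**Figure D5:**
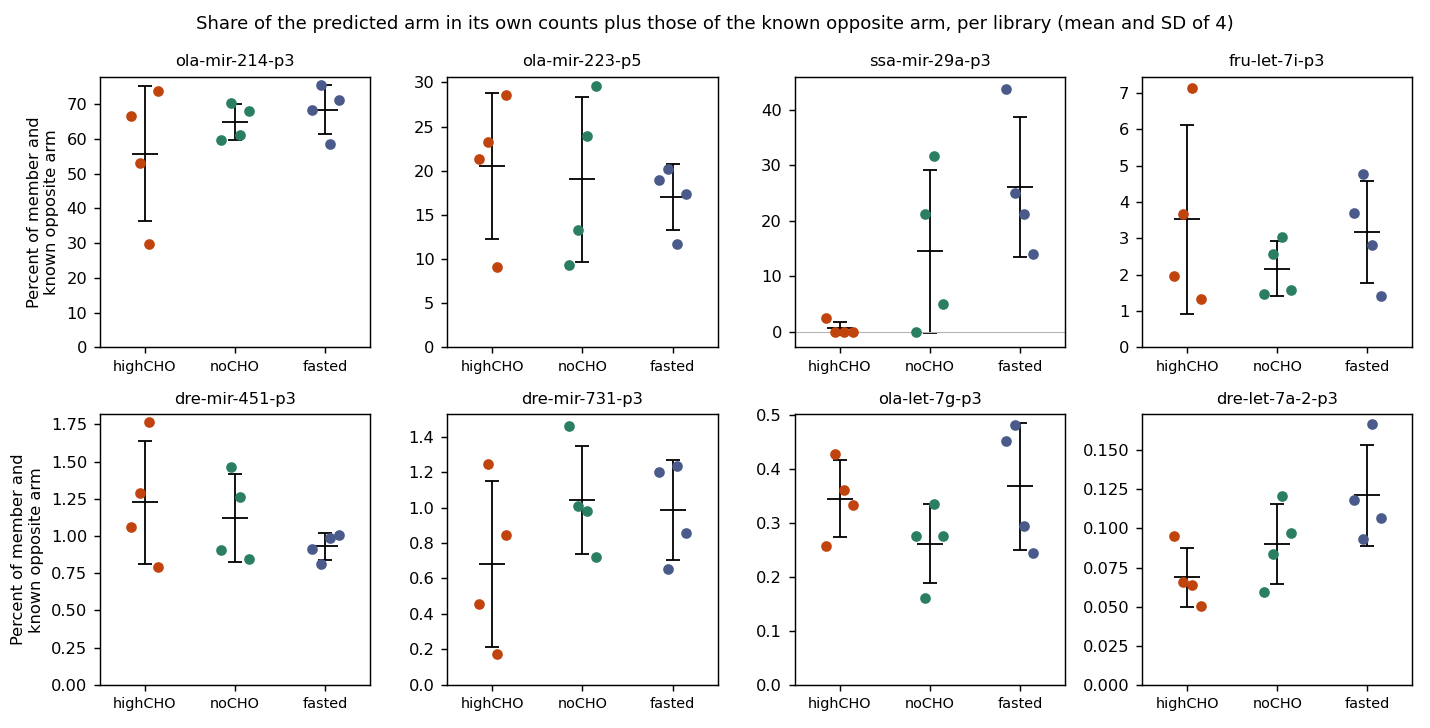
Share of the predicted arm in its own counts plus those of the known opposite arm, in percent (y axes), for 8 members; each point is 1 library, with mean and SD of the 4 libraries of the highCHO, noCHO and fasted groups. ssa-mir-29a-p3 stays at or under 2.41% in highCHO against at least 14.1% in fasted libraries, and each pair of groups overlaps in the other 7 plots.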

How the data were processed

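Small RNA libraries of 12 trout livers (4 per group) were analysed from 2 tables deposited by the authors. The deposited estimated counts split reads shared between sequences into fractions (85.1% of values were exactly whole), and the deposited normalized signal divides them by 1 library size parameter per library and was not used in tests. The deposited read summary gives whole read counts per step. Bowtie 1.1.1 is listed, with no role, per the submitters' processing notes. Genome build and miRNA release: not given in the sources used here. 0 sample columns were left out for want of a label, and no genome coordinates were analysed.

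Groups came from the labels, which name fish, not batches; the p-values measure the spread between these fish. Estimated counts were rounded and fitted in R 4.3.3 with edgeR 4.0.16 (TMM, filterByExpr, 1 quasi-likelihood fit of 12 libraries, 9 residual degrees of freedom, biological coefficient of variation 0.411), leaving 340 sequences with 99.9% of counts. Standard errors were derived from the fold change and F. limma 3.58.1 tested log2 arm ratios with 0.5 counts added to each arm and known arms summed over species prefixes; DESeq2 1.42.0 was an alternative. Tests were two-sided with Benjamini-Hochberg adjustment. Duplexes were computed with RNAduplex 2.7.2. A member shared a strand with a known row where at least 14 aligned bases were 80% identical or more. Both fits were tested on simulated data.

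Named members were those called in either test, the 12 with the highest mean CPM, the 3 higher and 3 lower with the smallest p in each comparison, and those above their known arm. Members, lists and this rule were chosen with earlier results of these data known. Alternatives covered scaling, filter, tool, rounding, samples, row summing, library set, pseudocount and leaving out each library.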

Additional observations from a re-analysis of the deposited data

Results flagged for a closer look

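Levels were checked in 81 combinations of member and group, and the members' summed share of counts in 3 groups. In 4 of the 81 levels and in no summed share, 1 library stood apart from the other 3 by Dixon's criterion at its 95% critical value, and chance alone gives about 1 in 20. In noCHO livers, ola-let-7g-p3 had 10.7 CPM in fish 21, against 18.3 to 19.2 CPM in the other 3, and dre-mir-457a-p3 had 3.82 CPM in fish 21, against 1.98 to 2.26 CPM. In highCHO livers, dre-mir-1306-p5 had 17.3 CPM in fish 45, against 8.34 to 9.55 CPM in the other 3. ssa-mir-29a-p3 had 0.521 CPM (1 count) in highCHO fish 38 and 0 in the other 3 highCHO livers.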

How the results depend on the processing

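Sequences called over the whole table moved with the setting, and members mostly did not. For highCHO against fasted (21 sequences), the count was 13 with sample-total scaling, 54 without a filter, 35 with DESeq2, 13 with a term for the library set and 13 with rows summed by stem and arm. For highCHO against noCHO (8) it was 3, 52, 22 and 18 under the first 4 of these, 4 with only the groups compared and 0 within the library set they share. For noCHO against fasted (0) it was 4 without a filter and 2 with DESeq2. For both refed groups against fasted (7) it was 1 with sample-total scaling, 11 with DESeq2 and 1 with the set term. Members called (0 in each) became 1 without a filter in noCHO against fasted, highCHO against fasted and highCHO against noCHO, and 1 with DESeq2 in highCHO against fasted. Without a filter, the member was ola-mir-19a-p3 in noCHO against fasted and in highCHO against noCHO. In highCHO against fasted it was another member, whose name is not given here. The number tested without a filter is not given here either, so those counts have no percentage beside them. With rows summed by stem and arm, members called became 3 in highCHO against fasted, where 13 were called in all. They became 1 in highCHO against noCHO (10 in all) and 2 for both refed groups (6 in all). The number tested in that setting is not given here, so these counts have no percentage beside them. Those sums are mostly known rows of the same arm. The 1 member arm ratio called became 0 with 2 counts added and 0 with the set term. With known arms of the same species prefix it was 0 of 6 tested; ssa-mir-29a-p3 has no such arm, so that setting says nothing of its ratio. With at least 500 counts of each arm 1 of 3 was called, dre-let-7a-2-p3 in place of ssa-mir-29a-p3. The number called over all 32 pairs of that setting is not given here, so this count has no background beside it.

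Leaving out each library in turn gave 7 to 25 sequences called in highCHO against fasted, 2 to 18 in highCHO against noCHO, 0 to 2 in noCHO against fasted and 0 to 9 for both refed groups, and 0 to 1 members in each of the first 2. Member arm ratios called ran from 0 to 2, with no count over all pairs given here beside them. The share of counts held by members differed by 0.00136 to 0.0112 points (highCHO minus fasted), 0.00528 to 0.0175 (highCHO minus noCHO) and −0.0110 to 0.000250 (noCHO minus fasted).

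Of 1898 recomputed log2 changes and arm ratios of named members, 119 changed sign. In 105 of these both values were within 1 SE of 0; the other 14 follow. With rows summed by stem and arm, dre-let-7a-2-p3 became 0.70 (highCHO over fasted), 0.30 (highCHO over noCHO), 0.40 (noCHO over fasted) and 0.55 (both refed over fasted), ola-mir-214-p3 0.54 (highCHO over fasted) and 0.34 (both refed), ssa-mir-122-1-p3 −0.21 (highCHO over fasted), ola-mir-19a-p3 −0.82 (highCHO over noCHO) and ssa-mir-30e-1-p3 −0.0079 (noCHO over fasted). Within the library set dre-mir-731-p3 became 0.40 (noCHO over fasted), and with the set term dre-mir-1306-p5 −0.22 (highCHO over fasted). Leaving out each library in turn, hhi-mir-7641-p5 ran from −0.63 to 0.43 (highCHO over fasted), −0.54 to 0.52 (highCHO over noCHO) and −0.36 to 0.17 (both refed over fasted), the lowest each time without highCHO fish 38. The causes were not tested. A minimum of 20 counts gave 37 members and of 200 counts 12. highCHO and fasted share no library set, so no value within a set could be had. No paired analysis was possible because the fish numbers are not shared between groups.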
